A study of Mus musculus with 6 samples.

Results

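The genes described here are 45 genes of DNA replication and S phase, chosen by symbol from a list, among 24493 genes in a table of transcript abundance. They fall into 15 genes of the replicative helicase and its licensing, 20 genes of polymerases, clamp and lagging strand processing, 6 genes of nucleotide supply and 4 genes of chromatin assembly. All 45 were in the table and all 45 passed the expression filter, so no member is missing from the tests. The 6 RNA sequencing libraries came from KPCY cells, pancreatic tumour cells of C57BL/6 mice with a yellow fluorescent lineage label. Cells transduced with shPthlh oligo #1 (n = 2) or shPthlh oligo #2 (n = 2), 2 hairpins against Pthlh, were compared with cells transduced with shNT (n = 2). Pthlh encodes parathyroid hormone-related protein, a secreted peptide. The cells of all 3 groups had been through transduction with a hairpin. The study's text speaks of 2 parental tumour cell clones, and no label ties a library to a clone, so hairpin and clone cannot be told apart. The labels give both growth in DMEM and sorting of tumour cells from animals, and which came before RNA extraction is not settled. Since no label ties replicates to different cultures or mice, each p-value reflects library-to-library spread alone, and that spread may be technical.

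Before S phase, the origin recognition complex, Cdc6 and Cdt1 load the ring of 6 MCM proteins onto DNA. The ring then joins Cdc45 and the GINS complex into the active helicase, and polymerase alpha with primase, polymerase delta and polymerase epsilon copy the strands behind it with the sliding clamp PCNA. Many of these genes are transcribed under E2F factors, which the retinoblastoma protein holds back until S phase entry, and dividing tumour cells usually express them at high levels. In bulk RNA, a smaller share of cells in S phase and less of each transcript per cell cannot be told apart.

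The stretch around the RefSeq start of each gene was read for short words known from cell cycle promoters. RefSeq windows of 300 bases (250 before the start to 50 after it, GRCm38.p6) were at hand for 39 of 45 members. Gene positions given elsewhere are from GENCODE, whose starts can differ. The Mcm7, Cdc6 and Dut windows lay wholly inside the GENCODE gene, so their words were read from sequence after that start. The E2F words searched were TTTCCCGC, TTTCGCGC, TTTGCCGC and TTTGGCGC on both strands, and 13 of 39 member windows (33.3%) held at least 1, against 389 of 8886 windows of tested genes (4.38%). Of the 13 windows, 8 belonged to the 12 windows of helicase and licensing genes, 5 to the 17 of polymerase and clamp genes, and 0 to the windows of nucleotide supply and chromatin assembly genes. The word CCAAT was in 24 member windows (61.5%, against 39.3% of tested genes), and the CHR words TTTGAA and TTCGAA were in 6 (15.4%, against 13.6%). E2F words overlapped each other in Mcm5 and Mcm6, and an E2F word overlapped CCAAT in Mcm7. Shown are windows of 3 subunits of the MCM ring and of Pole2, all with E2F words, because Mcm5, Mcm7 and Pole2 were called higher with shPthlh oligo #1 and Mcm6 was not. They lie on the plus strand at chr8:75109259-75109558 (Mcm5) and on the minus strand at chr5:138171834-138172133 (Mcm7), chr1:128359656-128359955 (Mcm6) and chr12:69228141-69228440 (Pole2). Capitals mark E2F words, and each sequence runs 5′ to 3′ on the strand of its gene.
Mcm5: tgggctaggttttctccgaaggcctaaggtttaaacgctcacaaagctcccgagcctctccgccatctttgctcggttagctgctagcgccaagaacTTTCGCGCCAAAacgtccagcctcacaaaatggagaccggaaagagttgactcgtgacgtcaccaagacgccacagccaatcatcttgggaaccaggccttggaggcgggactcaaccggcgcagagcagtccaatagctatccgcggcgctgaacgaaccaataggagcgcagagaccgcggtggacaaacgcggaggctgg
Mcm7: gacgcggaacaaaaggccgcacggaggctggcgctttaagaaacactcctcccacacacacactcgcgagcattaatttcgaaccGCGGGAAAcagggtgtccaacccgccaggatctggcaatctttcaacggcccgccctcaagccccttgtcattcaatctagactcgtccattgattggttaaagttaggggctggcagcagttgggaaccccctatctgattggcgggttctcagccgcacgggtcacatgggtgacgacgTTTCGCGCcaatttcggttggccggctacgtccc
Mcm6: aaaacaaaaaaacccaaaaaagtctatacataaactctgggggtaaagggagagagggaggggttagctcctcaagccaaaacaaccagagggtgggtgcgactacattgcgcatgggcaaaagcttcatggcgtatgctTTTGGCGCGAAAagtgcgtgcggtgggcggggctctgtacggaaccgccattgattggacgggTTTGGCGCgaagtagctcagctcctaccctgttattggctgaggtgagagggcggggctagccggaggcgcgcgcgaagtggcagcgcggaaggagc
Pole2: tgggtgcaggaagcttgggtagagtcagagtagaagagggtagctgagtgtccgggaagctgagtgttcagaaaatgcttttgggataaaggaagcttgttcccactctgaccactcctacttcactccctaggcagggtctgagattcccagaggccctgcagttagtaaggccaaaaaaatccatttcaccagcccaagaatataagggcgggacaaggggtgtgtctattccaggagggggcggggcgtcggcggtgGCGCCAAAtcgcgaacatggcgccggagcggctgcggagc
A word in the window is a description of the sequence and not a binding site. With shPthlh oligo #1, 10 of the 13 members with an E2F word were called higher than in shNT (76.9%), as were 12 of the 26 members without one (46.2%). Over all tested genes the same shares were 23.1% of 389 and 22.9% of 8497. None of the 13 members with an E2F word lies on chromosomes 2, 16 or 19, where 0 of 10 members were called higher with oligo #1. Members without a word that lie there are Cdc45, Chaf1b, Dut, Fen1, Mcm10, Pcna, Pola2 and Rfc4. The part of these chromosomes in the 2 member shares was not tested.

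Libraries of a group correlated across genes at r = 0.987 to 0.992, and TPM keeps no trace of read number, so depth is unknown. Pthlh itself was near the limit of the table, at 0 and 0.103 scaled TPM with shPthlh oligo #1, 0.0416 and 0.255 with shPthlh oligo #2, and 0.79 and 1 in shNT. Its mean was 5.76% and 16.5% of shNT with oligo #1 and oligo #2. The cells carried ductal epithelial markers, 6 of 8 at 1 TPM or more in all libraries, while Epcam and Cldn4 were below 1 in all. Markers of blood, stromal and islet cells were mostly near 0. Summed scaled TPM was 1.49 to 4.26 for 9 myeloid and lymphoid markers and 0.297 to 0.549 for 7 fibroblast markers across the 6 libraries. Among the 9, Cd68 was the 1 marker at 1 TPM or more in all libraries, at 1.15 to 2.5 scaled TPM. Of 4 acinar markers, Cela1 was at 12 and 13.3 scaled TPM with oligo #1, 11.4 and 10.5 with oligo #2, and 15 and 20.3 in shNT, while Cpa1 was at 0 in all and Prss1 and Ptf1a were below 1. The part of acinar marker RNA in the results was not tested. A single short entry, Mir6236, held 19.7% to 23.4% of all TPM with the Pthlh hairpins and 24.3% and 34.1% in shNT. A larger share leaves less TPM for every other gene. Values below are TPM divided by a median-ratio size factor per library, called scaled TPM. Differences are on the log2(scaled TPM + 1) scale with their SE. The factors did not follow the Mir6236 share alone. They were 0.951 and 0.964 in shNT replicates 1 and 2 (34.1% and 24.3%), and 1.02 in oligo #2 replicate 1 (23.4%). What else set the factors apart was not tested. A gene was called where the limma p-value, adjusted by the Benjamini-Hochberg method over all 11549 tested genes, was under 0.05.

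Against shNT, 20 of 45 members were called higher and 1 lower in the mean of both hairpins, where 15.1% of all tested genes were called higher and 18.7% lower. The 20 were Cdc6, Cdt1, Mcm2, Mcm5, Mcm7, Gins2, Pola1, Prim1, Prim2, Pold1, Pold2, Pole2, Rfc2, Rfc3, Rfc5, Rpa1, Rpa2, Lig1, Rrm2 and Chaf1a, and the 1 was Mcm4. The median member difference was 0.18, against 0.01 over all tested genes, and the member differences ran from -0.20 to 0.44. In 21 members all 4 knockdown libraries lay above both shNT libraries, as in 16.1% of tested genes, and in 1 all 4 lay below, as in 19.1% of tested genes. The summed scaled TPM of the 45 genes was 3360 and 3370 with shPthlh oligo #1, 3160 and 3170 with shPthlh oligo #2, and 2940 and 3020 in shNT. On this scale the groups did not overlap in this sum, and oligo #1 was the highest. The separation depends on the scale. Small-RNA entries held 34.5% of TPM in shNT replicate 1, and 24% and 21.9% with oligo #2. Taking them out would put the sum of shNT replicate 1 above both oligo #2 libraries, with oligo #1 still highest. The calls rest on the spread within groups: with both hairpins pooled as 1 group of 4 libraries, limma called 0 members, with 12 at unadjusted p under 0.05, and 4 of 11549 genes, all lower. Pooling ended the call of each gene named below in the mean of both hairpins. Leaving out 1 library gave 13 and 12 members higher without oligo #1 replicates 1 and 2, 14 and 13 without oligo #2 replicates 1 and 2, and 20 and 19 without shNT replicates 1 and 2.

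**Figure D1:**
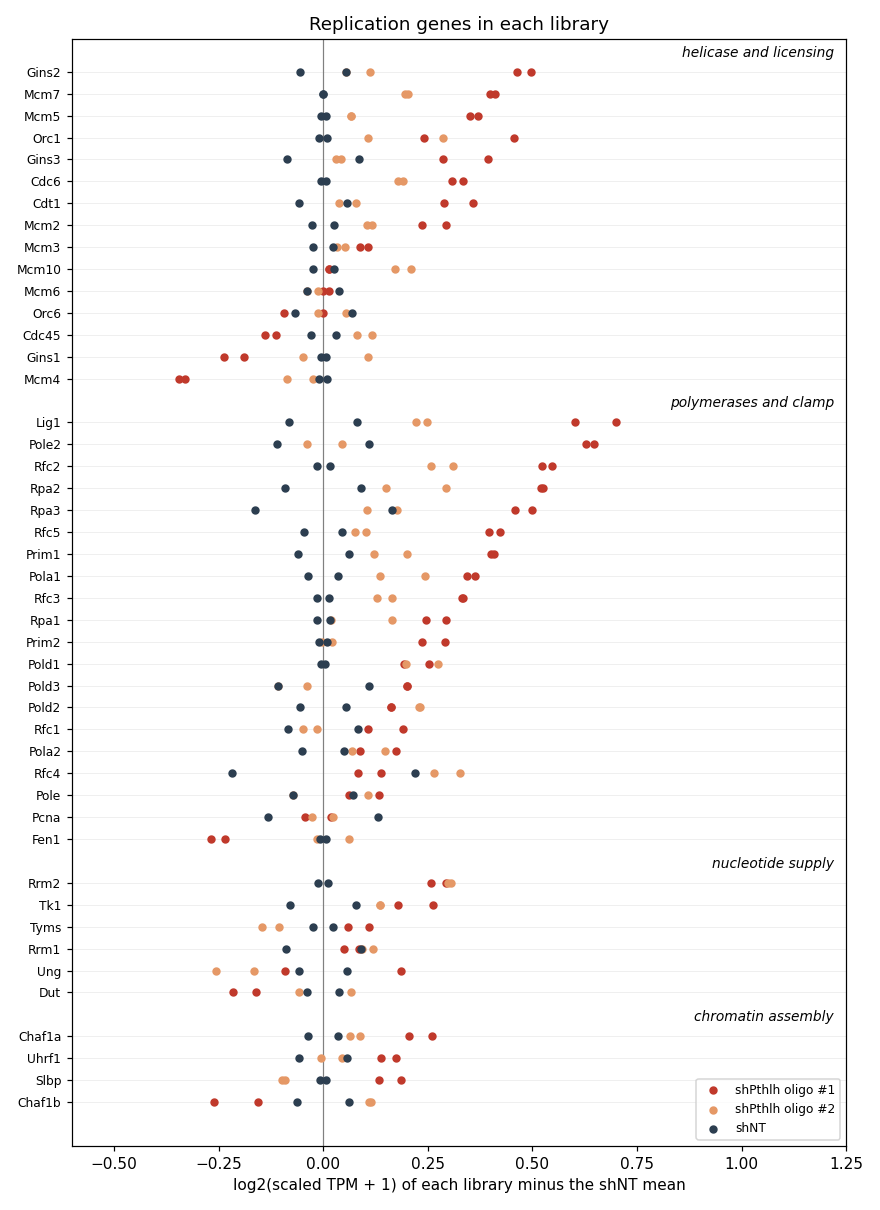
Each point is 1 library of 1 replication gene, drawn as log2(scaled TPM + 1) minus the shNT mean of that gene, with genes grouped by role and ordered by their difference with shPthlh oligo #1. Red points (shPthlh oligo #1) lie to the right for most genes and to the left for the 5 called lower (Mcm4, Fen1, Gins1, Chaf1b and Dut) and for Cdc45, while orange points (shPthlh oligo #2) mostly lie nearer to the dark shNT points at 0.

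The hairpins differed in extent. With shPthlh oligo #1, 25 members were called higher and 5 lower than in shNT, where 22.7% and 24.3% of tested genes were called. With shPthlh oligo #2, 4 were called higher (Mcm7, Pold1, Rfc2 and Rrm2) and 0 lower by limma, with 13 at unadjusted p under 0.05 in either direction, where 2.11% and 4.8% of tested genes were called. These 4 were also called higher with oligo #1. The median member difference was 0.22 with oligo #1 and 0.09 with oligo #2, and both comparisons use the same shNT libraries. Set against oligo #1 directly, oligo #2 had 7 members higher and 18 lower, where 20.3% and 19.5% of tested genes were called. The 18 lower members were 6 of helicase and licensing, 9 of polymerases and clamp, 1 of nucleotide supply and 2 of chromatin assembly. The oligo #2 calls were the least stable: 0 members were higher without any 1 of the 4 knockdown libraries, 4 without shNT replicate 1 and 10 without shNT replicate 2. For oligo #1, 18 were higher without oligo #1 replicate 1 or 2, 22 without oligo #2 replicate 1 or 2, 27 without shNT replicate 1 and 25 without shNT replicate 2. The 5 lower became 2, 1, 3, 3, 6 and 2 over those same omissions. Between the hairpins, the 18 lower became 8 and 5 without oligo #1 replicates 1 and 2, 4 and 6 without oligo #2 replicates 1 and 2, and 21 without either shNT library. The 7 higher became 2 without any 1 knockdown library and 8 without either shNT library.

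Licensing factors were among the genes that rose. Cdc6, the ATPase that brings the MCM ring to origins, was at 14.7 and 14.4 scaled TPM with shPthlh oligo #1, 13.1 and 13.2 with shPthlh oligo #2, and 11.5 and 11.4 in shNT. All 4 knockdown libraries lay above both shNT libraries, and the difference was 0.25 ± 0.04 (limma adjusted p = 0.00805). Cdt1, which loads the ring together with Cdc6, was at 90.9 and 86.6 with oligo #1, 74.7 and 72.6 with oligo #2, and 73.6 and 67.9 in shNT. Its oligo #2 libraries overlapped the shNT libraries, and while the knockdown difference was 0.19 ± 0.05 (limma adjusted p = 0.0322), that of oligo #2 alone was 0.06 (limma adjusted p = 0.548). The Cdt1 call was lost without oligo #1 replicate 1 or 2 (limma adjusted p = 0.0979 and 0.0684), oligo #2 replicate 1 or 2 (0.104 and 0.0846) or shNT replicate 2 (0.0621). Orc1, a subunit of the origin recognition complex, was the lowest expressed member at a mean of 8.0 scaled TPM. It was not called in the mean of both hairpins (limma adjusted p = 0.0584).

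Subunits of the MCM ring were called in both directions. Mcm7 (chromosome 5, 138164583 to 138172422, minus strand, mm10) was the highest expressed helicase gene. It was at 229 and 227 scaled TPM with shPthlh oligo #1, 197 and 198 with shPthlh oligo #2, and 172 in both shNT libraries. The 3 groups were fully separate. Mcm7 rose by 0.30 ± 0.03 in the mean of both hairpins (limma adjusted p = 0.00285), by 0.41 with oligo #1 (0.0009) and by 0.20 with oligo #2 (limma adjusted p = 0.0446). Mcm4 (chromosome 16, 15623897 to 15637400, minus strand) went the other way, at 73.5 and 72.8 with oligo #1, 91.2 and 87.3 with oligo #2, and 93.3 and 92.1 in shNT. It was low with oligo #1, and its oligo #2 libraries lay just under the shNT libraries. Mcm4 fell by 0.20 ± 0.04 in the mean of both hairpins (limma adjusted p = 0.0123) and by 0.34 with oligo #1 (limma adjusted p = 0.002), and oligo #2 was higher than oligo #1 by 0.28 ± 0.04 (limma adjusted p = 0.00479). The knockdown call for Mcm4 was lost without oligo #1 replicate 2 (limma adjusted p = 0.0531) or oligo #2 replicate 2 (0.0567), in deposited TPM (0.0797) and with chromosome medians removed (0.686).

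Of the other ring subunits, Mcm5 was at 150 and 152 scaled TPM with shPthlh oligo #1, 123 and 123 with shPthlh oligo #2, and 118 and 117 in shNT. The oligo #1 libraries stood well above the rest. Mcm5 rose by 0.21 ± 0.03 in the mean of both hairpins (limma adjusted p = 0.0076) and by 0.36 with oligo #1 (0.00127), and oligo #2 was lower than oligo #1 by a difference of -0.29 ± 0.04 (limma adjusted p = 0.00325). Mcm2 was at 125 and 130 with oligo #1, 114 and 115 with oligo #2, and 108 and 104 in shNT, a difference of 0.18 ± 0.04 (limma adjusted p = 0.0169) with no overlap between knockdown and shNT libraries. The Mcm2 call was lost without oligo #1 replicate 2 (limma adjusted p = 0.0666) or oligo #2 replicate 1 or 2 (0.069 and 0.0721). Mcm3 and Mcm6 had no call in any of the 4 comparisons on this scale. For Mcm6 the knockdown difference was -0.01 (95% interval -0.10 to 0.09) although its promoter window held the most E2F words of the 4 shown. Mcm4 amounted to 0.473 and 0.466 of the mean of the other 5 subunits with oligo #1, 0.653 and 0.622 with oligo #2, and 0.7 and 0.708 in shNT. This ratio of scaled TPM, per length, was lowest with oligo #1 and did not overlap between groups.

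**Figure D2:**
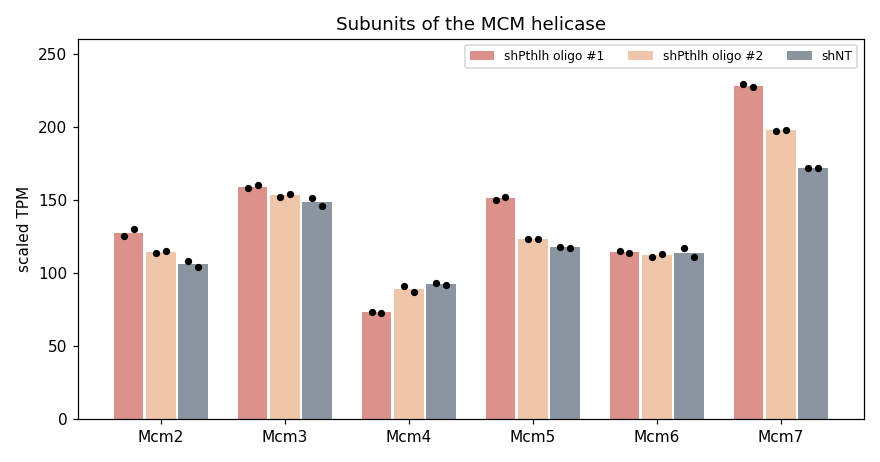
Bars give the mean scaled TPM of each subunit of the MCM helicase, and black points the 2 libraries of each group, for shPthlh oligo #1, shPthlh oligo #2 and shNT from left to right. Mcm7 steps down over the 3 groups (229 and 227, 197 and 198, 172), Mcm4 is lowest with shPthlh oligo #1 (73.5 and 72.8), and Mcm6 is level.

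The GINS complex, which completes the active helicase with Cdc45, likewise had subunits called in both directions with oligo #1 on this scale. Gins2 was at 85.4 and 87.4 scaled TPM with shPthlh oligo #1, 64.1 and 66.7 with shPthlh oligo #2, and 59.3 and 64.1 in shNT. The oligo #1 libraries were high, and the oligo #2 libraries touched the shNT range. Gins2 rose by 0.28 ± 0.05 in the mean of both hairpins (limma adjusted p = 0.00867) and by 0.48 with oligo #1 (0.00141), and the oligo #2 minus oligo #1 difference was -0.40 ± 0.05 (limma adjusted p = 0.00355). Gins1 was at 42.4 and 41 with oligo #1, 52.3 and 46.9 with oligo #2, and 48.3 and 48.7 in shNT. It was lower with oligo #1 by a difference of -0.21 (limma adjusted p = 0.0347), and oligo #2 was higher than oligo #1 by 0.24 (limma adjusted p = 0.0268). The oligo #1 call of Gins1 was lost without oligo #1 replicate 1 or 2 (limma adjusted p = 0.102 and 0.159) or shNT replicate 1 or 2 (0.066 and 0.071), and the call between hairpins without oligo #1 replicate 1 or 2 (0.0918 and 0.136) or oligo #2 replicate 1 (0.127). In deposited TPM and with no filter the oligo #1 call of Gins1 was also lost (limma adjusted p = 0.176 and 0.0544). With chromosome medians removed its oligo #1 difference turned to 0.16, with no call. Gins3 was called higher with oligo #1, at 0.34 (limma adjusted p = 0.0157), a call lost without small-RNA entries (0.0968). The ratio of Gins2 to Gins1 was 2.01 and 2.13 with oligo #1, 1.23 and 1.42 with oligo #2, and 1.23 and 1.31 in shNT.

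Cdc45, the helicase partner of GINS, and Mcm10, which helps to start the helicase, were called only between the hairpins on this scale. Cdc45 was at 30 and 29.4 scaled TPM with oligo #1, 35.3 and 34.4 with oligo #2, and 31.8 and 33.2 in shNT. Oligo #2 was higher than oligo #1 by 0.23 ± 0.04 (limma adjusted p = 0.0127), with the shNT libraries between them. Mcm10 was at 25 in both oligo #1 libraries, 28.8 and 28 with oligo #2, and 25.2 and 24.3 in shNT. Oligo #2 was higher than oligo #1 by 0.18 ± 0.04 (limma adjusted p = 0.0253). The Cdc45 call was lost without oligo #1 replicate 1 or 2 (limma adjusted p = 0.0625 and 0.0825) or oligo #2 replicate 1 or 2 (0.0918 and 0.0628), and the Mcm10 call without the same libraries (0.114, 0.119, 0.152 and 0.0929). With chromosome medians removed both lost the call between hairpins (limma adjusted p = 0.374 and 0.09) and were called higher than shNT in the mean of both hairpins, Cdc45 at 0.16 (0.0348) and Mcm10 at 0.33 (0.00374).

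Polymerase and clamp genes held most of the calls, 12 of 20 higher and 0 lower in the mean of both hairpins, where 15.1% and 18.7% of all tested genes were called. Without small-RNA entries it was 6 higher and 0 lower. Summed scaled TPM of the 20 was 1266 and 1284 with oligo #1, 1177 and 1186 with oligo #2, and 1063 and 1155 in shNT. The polymerase alpha and primase complex, which lays down primers, had 3 of 4 subunits called. Prim1, the catalytic primase subunit, was at 49.1 and 48.9 with oligo #1, 42.4 and 40.1 with oligo #2, and 35.2 and 38.4 in shNT, a difference of 0.28 ± 0.05 (limma adjusted p = 0.0112). Pola1, the catalytic subunit of polymerase alpha, was at 12.5 and 12.7 with oligo #1, 11.6 and 10.7 with oligo #2, and 9.91 and 9.39 in shNT, a difference of 0.27 ± 0.05 (limma adjusted p = 0.0146). Both genes had every knockdown library above both shNT libraries. Prim2, the other primase subunit, was at 27.8 and 28.9 with oligo #1, 23.8 and 23.4 with oligo #2, and 23.6 and 23.3 in shNT, a difference of 0.14 ± 0.04 (limma adjusted p = 0.0416), with 0.01 for oligo #2 alone (limma adjusted p = 0.918). The Pola1 call was lost without oligo #1 replicate 1 or 2 (limma adjusted p = 0.0518 and 0.056). The Prim2 call was lost without any 1 library, at limma adjusted p = 0.0844 and 0.125 (oligo #1 replicates 1 and 2), 0.131 and 0.109 (oligo #2) and 0.0705 and 0.077 (shNT).

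Among the 2 main replicative polymerases, Pold1 was called higher with each hairpin, and Pold2 and Pole2 with oligo #1. The oligo #1 differences of Pold2 and Pole2 were 0.16 and 0.64 (limma adjusted p = 0.0434 and 0.00258). Pold1, the catalytic subunit of polymerase delta, was at 35.6 and 37.1 scaled TPM with oligo #1, 37.7 and 35.7 with oligo #2, and 30.9 and 31.1 in shNT. Libraries of the 2 hairpins overlapped and all 4 lay above both shNT libraries, and the differences were 0.23 ± 0.04 in their mean (limma adjusted p = 0.012), 0.22 with oligo #1 (0.0136) and 0.24 with oligo #2 (limma adjusted p = 0.05, just under the threshold before rounding). Pold2, its accessory subunit, was at 59.9 in both oligo #1 libraries, 62.9 and 62.8 with oligo #2, and 51.4 and 55.6 in shNT, a difference of 0.20 ± 0.04 (limma adjusted p = 0.0212). For both genes the oligo #2 minus oligo #1 difference was not called (0.01, 95% interval -0.11 to 0.13, and 0.07, 95% interval -0.06 to 0.19). Pole2 (chromosome 12, 69201773 to 69228195, minus strand), the second subunit of polymerase epsilon, was the lowest expressed gene of this role. It was at 14.5 and 14.7 with oligo #1, 9.35 and 8.76 with oligo #2, and 8.29 and 9.82 in shNT. The oligo #2 libraries lay inside the shNT range, with a difference of 0.00 for oligo #2 (limma adjusted p = 0.984) beside 0.32 ± 0.07 in the mean of both hairpins (limma adjusted p = 0.0241). Oligo #2 minus oligo #1 was -0.63 ± 0.08 (limma adjusted p = 0.00357), the largest difference between hairpins among the members. Pole, the catalytic subunit of polymerase epsilon, had no call. Without small-RNA entries the oligo #1 calls of Pold1 and Pold2 were lost (limma adjusted p = 0.223 and 0.419). With chromosome medians removed both were lost (limma adjusted p = 0.11 and 0.22), and Pole2 kept its oligo #1 call on both scales. The oligo #2 call of Pold1 was lost on both (limma adjusted p = 0.289 and 0.0958). It was also lost with pseudocount 0.1 (limma adjusted p = 0.0519), no filter (0.0684) or a replicate block (0.0895).

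Several of these polymerase calls were lost when 1 library was left out. For Pold2 and Pole2 this held for whichever knockdown library was left out, with little change in the difference. Over those omissions the knockdown difference was 0.20 for Pold2 and 0.30 to 0.34 for Pole2. The oligo #1 call of Pold1 was lost without oligo #1 replicate 2 (limma adjusted p = 0.0884). The oligo #2 call of Pold1 was lost without oligo #1 replicate 1 or 2 (limma adjusted p = 0.115 for each), oligo #2 replicate 1 or 2 (0.275 and 0.178) or shNT replicate 1 (0.0841). The knockdown call of Pold2 was lost without oligo #1 replicate 1 or 2 (limma adjusted p = 0.0711 and 0.0712) or oligo #2 replicate 1 or 2 (0.0755 and 0.075). That of Pole2 was lost without oligo #1 replicate 1 or 2 (limma adjusted p = 0.0725 and 0.077), oligo #2 replicate 1 or 2 (0.076 and 0.0581) or shNT replicate 1 (0.056, with a difference of 0.21). The Pole2 difference between the hairpins kept its call without any 1 library.

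Of the clamp and its loader, Pcna, the sliding clamp itself, was the highest expressed member and had no call on this scale. It was at 378 and 395 scaled TPM with oligo #1, 383 and 396 with oligo #2, and 356 and 427 in shNT, where the 2 libraries enclosed all others. The knockdown difference was -0.01, with a 95% interval of -0.21 to 0.19. Rfc2 (chromosome 5, 134581366 to 134601805, plus strand), a subunit of the clamp loader, was at 68.7 and 67.5 with oligo #1, 56 and 58.1 with oligo #2, and 46.2 and 47.2 in shNT. The 3 groups were separate, and Rfc2 rose by 0.41 ± 0.04 in the mean of both hairpins (limma adjusted p = 0.00167), by 0.53 with oligo #1 (0.000538) and by 0.28 with oligo #2 (limma adjusted p = 0.0261). The loader subunit Rfc5 was at 63 and 61.9 with oligo #1, 49.4 and 50.3 with oligo #2, and 48.3 and 45.3 in shNT. Rfc5 was higher by 0.25 ± 0.04 in the mean of both hairpins (limma adjusted p = 0.00865) and by 0.41 with oligo #1 (0.0016), and oligo #2 minus oligo #1 was -0.32 ± 0.05 (limma adjusted p = 0.00479). Rfc3 was at 54.8 and 54.7 with oligo #1, 48.6 and 47.4 with oligo #2, and 42.8 and 43.7 in shNT, with a difference of 0.24 ± 0.03 (limma adjusted p = 0.00595). Rfc1, the large subunit, and Rfc4 had no call on this scale.

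The single-strand binding protein RPA and the enzymes that finish the lagging strand were mixed. Rpa2 was at 51.1 and 51.3 scaled TPM with oligo #1, 43.5 and 39.3 with oligo #2, and 33.1 and 37.7 in shNT, a difference of 0.37 ± 0.07 (limma adjusted p = 0.0123) with no overlap between knockdown and shNT libraries. Rpa1, the large RPA subunit, was at 55.2 and 57.1 with oligo #1, 47 and 52.1 with oligo #2, and 46.9 and 45.9 in shNT, a difference of 0.18 ± 0.05 (limma adjusted p = 0.0476). The Rpa1 call was lost without oligo #1 replicate 1 or 2 (limma adjusted p = 0.1 and 0.133), oligo #2 replicate 2 (0.104) or shNT replicate 1 or 2 (0.0864 and 0.108). Lig1 (chromosome 7, 13277283 to 13311433, plus strand), the ligase that joins Okazaki fragments, had the largest knockdown difference of the members. It was at 65.6 and 70.3 with oligo #1, 50.2 and 51.1 with oligo #2, and 45.4 and 40.5 in shNT, with all 3 groups apart. Lig1 rose by 0.44 ± 0.06 in the mean of both hairpins (limma adjusted p = 0.00495) and by 0.65 with oligo #1 (0.00123), and oligo #2 minus oligo #1 was -0.42 ± 0.07 (limma adjusted p = 0.00678). That last call was lost without oligo #1 replicate 2 (limma adjusted p = 0.0505) or oligo #2 replicate 1 (0.0507).

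Fen1 (chromosome 19, 10199132 to 10204169, minus strand), the nuclease that trims the flap before Lig1 seals it, was at 53.4 and 52.2 scaled TPM with oligo #1, 62.4 and 65.8 with oligo #2, and 63.4 and 62.7 in shNT. It was lower with oligo #1 by a difference of -0.25 ± 0.04 (limma adjusted p = 0.00694), and oligo #2 was higher than oligo #1 by 0.28 ± 0.04 (limma adjusted p = 0.00651), while the oligo #2 libraries enclosed the shNT libraries. The ratio of Lig1 to Fen1 was 1.23 and 1.35 with oligo #1, 0.804 and 0.776 with oligo #2, and 0.717 and 0.646 in shNT. In deposited TPM the oligo #1 difference of Fen1 was -0.15 and not called (limma adjusted p = 0.0525). With chromosome medians removed it was -0.08 (limma adjusted p = 0.187), and the Fen1 difference between hairpins was 0.12 (0.0978). The Fen1 call with oligo #1 was lost without oligo #1 replicate 2 (limma adjusted p = 0.0538), and that between hairpins without oligo #1 replicate 2 (0.0528) or oligo #2 replicate 2 (0.0548).

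Of the 6 nucleotide supply genes, 1 was called higher in the mean of both hairpins and 0 lower, where 15.1% and 18.7% of all tested genes were called. Rrm2 (chromosome 12, 24708241 to 24714146, plus strand), the small subunit of ribonucleotide reductase that is made in S phase, was at 209 and 204 scaled TPM with oligo #1, 210 and 211 with oligo #2, and 172 and 169 in shNT. All 4 knockdown libraries lay above both shNT libraries and close to each other. Rrm2 rose by 0.29 ± 0.03 in the mean of both hairpins (limma adjusted p = 0.00375), by 0.27 with oligo #1 (0.00358) and by 0.30 with oligo #2 (limma adjusted p = 0.021). The oligo #2 minus oligo #1 difference was 0.03 (95% interval -0.07 to 0.13; limma adjusted p = 0.616). With oligo #2 the calls of Rrm2, Rfc2 and Mcm7 were each lost without any 1 knockdown library. Over those 4 omissions the limma adjusted p was 0.0738, 0.0738, 0.18 and 0.167 for Rrm2, 0.0816, 0.0816, 0.167 and 0.18 for Rfc2, and 0.122, 0.122, 0.261 and 0.252 for Mcm7, in the order oligo #1 replicates 1 and 2, oligo #2 replicates 1 and 2.

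The large reductase subunit Rrm1 was at 88.7 and 86.5 with oligo #1, 89.1 and 90.7 with oligo #2, and 88.9 and 78.4 in shNT. It had no call in any comparison on this scale. Dut, which removes dUTP, was at 76 and 73.1 with oligo #1, 81.7 and 89.1 with oligo #2, and 82.8 and 87.4 in shNT. It was lower with oligo #1 by a difference of -0.19 (limma adjusted p = 0.0474), a call lost without either oligo #1 library (0.113 and 0.206), either oligo #2 library (0.0586 and 0.0587) or shNT replicate 2 (0.109). Ung, the uracil glycosylase, was the lowest expressed gene of this role at a mean of 17.1 and had no call.

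Of the 4 chromatin assembly genes, 1 was called higher in the mean of both hairpins and 0 lower, where 15.1% and 18.7% of all tested genes were called. Chaf1a, the large subunit of the histone chaperone CAF-1, was at 67.1 and 64.6 scaled TPM with oligo #1, 58.5 and 59.5 with oligo #2, and 57.3 and 54.5 in shNT, a difference of 0.15 ± 0.04 (limma adjusted p = 0.034). The call was lost without oligo #1 replicate 1 or 2 (limma adjusted p = 0.105 and 0.0749), oligo #2 replicate 1 or 2 (0.0975 and 0.114) or shNT replicate 2 (0.0651). Its partner Chaf1b was at 32 and 34.5 with oligo #1, 41.8 and 41.7 with oligo #2, and 36.9 and 40.3 in shNT. Chaf1b was lower with oligo #1 by a difference of -0.21 (limma adjusted p = 0.0386), and oligo #2 was higher than oligo #1 by 0.32 ± 0.06 (limma adjusted p = 0.0115). The first was lost without oligo #1 replicate 1 or 2 (limma adjusted p = 0.186 and 0.0627), oligo #2 replicate 1 or 2 (0.0804 and 0.0806) or shNT replicate 2 (0.0892), the second without oligo #1 replicate 1 (0.071) or oligo #2 replicate 1 or 2 (0.069 and 0.0667). Slbp, which binds the stem-loop of histone mRNAs, was at 77.1 and 80 with oligo #1, 65.9 and 65.5 with oligo #2, and 70.6 and 69.9 in shNT, with the shNT libraries between the hairpins. Slbp was called higher with oligo #1, at 0.16 (limma adjusted p = 0.0235). This call was lost without small-RNA entries (0.09, limma adjusted p = 0.476) and with chromosome medians removed (0.06, limma adjusted p = 0.305). Oligo #2 minus oligo #1 was -0.25 ± 0.04 (limma adjusted p = 0.00615), lost without oligo #1 replicate 2 (0.052) or oligo #2 replicate 1 or 2 (0.0514 and 0.0543). Uhrf1, which carries DNA methylation through replication, was the highest expressed of the 4 at a mean of 118. It had no call on the median-ratio scale.

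The members called lower with oligo #1 shared their chromosomes. Mcm4, Fen1, Gins1, Chaf1b and Dut all lie on chromosomes 2, 16 or 19, which hold 10 of the 45 members, and 0 of those 10 were called higher with oligo #1. Of the 35 members on other chromosomes, 25 were called higher and 0 lower. These chromosomes were singled out after their values were seen. The median of all tested genes with oligo #1 minus shNT was -0.37 on chromosome 2 (912 genes), -0.30 on chromosome 16 (355 genes) and -0.17 on chromosome 19 (420 genes). It was -0.23 on chromosome 9, which holds no member, and between -0.09 and 0.12 on all others. With oligo #2 the medians of chromosomes 2, 16 and 19 were -0.08, -0.03 and -0.01, and that of chromosome 9 was -0.18.

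With each chromosome's median subtracted in each library, 17 members were higher and 0 lower in the mean of both hairpins, where 12.2% and 14% of genes were called. With oligo #1 it was 23 higher and 0 lower, where 20.1% and 20.7% were called, and for oligo #2 against oligo #1 it was 0 higher and 9 lower, where 17.4% and 17.3% were called. Of the 20 members higher in the mean of both hairpins, 14 remained higher. Cdt1, Mcm2, Pold2, Pole2, Rpa1 and Chaf1a lost the call (limma adjusted p = 0.0625, 0.0711, 0.0697, 0.0515, 0.154 and 0.331). Mcm4 was then at -0.02 and Fen1 at -0.08 with oligo #1 (limma adjusted p = 0.702 and 0.187). With the same hairpin Gins1, Chaf1b and Dut were at 0.16, 0.11 and 0.19 with no call. Mcm10 was at 0.39 (limma adjusted p = 0.00172) and Pcna at 0.36 (limma adjusted p = 0.0279), both higher with oligo #1 after this step. The part of the chromosome medians in the member differences was not tested beyond this subtraction.

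**Figure D3:**
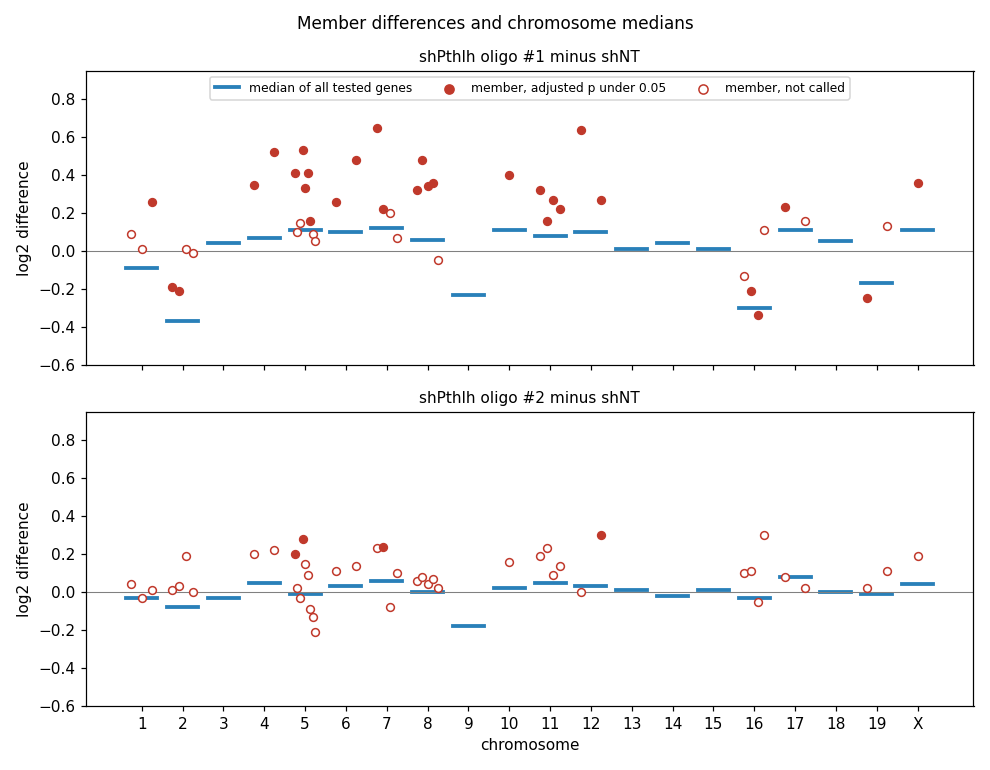
Circles give the log2 difference of each replication gene against shNT by chromosome, for shPthlh oligo #1 (top) and shPthlh oligo #2 (bottom), filled where the limma adjusted p was under 0.05, and blue lines the median of all tested genes on that chromosome. With shPthlh oligo #1 all 5 members called lower lie on chromosomes 2, 16 or 19, whose medians are -0.37, -0.30 and -0.17.

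The number of members called also depended on how the libraries were put on 1 scale. In deposited TPM, where the median of all genes stood at 0.10 in the mean of both hairpins, 30 members were higher and 0 lower, where 27.3% and 12.1% of genes were called. With oligo #1 it was 31 higher and 1 lower (32.1% and 18.1% of genes), and with oligo #2 it was 11 higher and 0 lower (6.62% and 3% of genes). With small-RNA entries removed and TPM summed to 1000000 again, the median of all genes stood at -0.04, and 9 members were higher and 1 lower in the mean of both hairpins (8.61% and 17.1% of genes). The same scale gave 11 higher and 5 lower with oligo #1 (15.1% and 24.7% of genes) and 0 and 0 with oligo #2 by limma (1.3% and 3.32% of genes), with 5 at unadjusted p under 0.05. Mcm7, Gins2, Prim1, Pole2, Rfc2, Rpa2, Rpa3, Lig1 and Rrm2 were the 9 higher on that scale, and Mcm4 the 1 lower. The 12 that lost the call in the mean of both hairpins were Cdc6, Cdt1, Mcm2, Mcm5, Pola1, Prim2, Pold1, Pold2, Rfc3, Rfc5, Rpa1 and Chaf1a, at limma adjusted p = 0.0999 (Rfc3) to 0.516 (Prim2). Under each of these scales the median of the members was above the median of all genes in the mean of both hairpins, at 0.28 in deposited TPM and 0.12 without small-RNA entries.

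**Figure D4:**
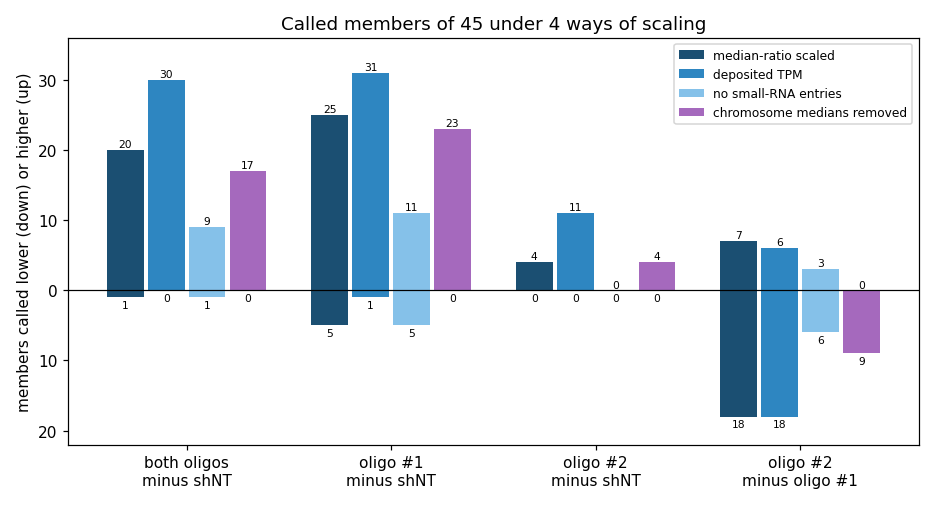
Bars count the members of 45 called higher (up) or lower (down) by limma in each of the 4 comparisons, under median-ratio scaling, deposited TPM, TPM without small-RNA entries and removal of chromosome medians. Members higher in the mean of both hairpins number 20, 30, 9 and 17 in that order.

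Other genes of the same processes were mixed in direction. In the mean of both hairpins, 9 of 20 other fork and lagging strand factors were called higher and 2 lower, with a median of 0.20. Of 16 other origin and helicase factors, 5 were higher and 2 lower, and of 19 other nucleotide supply enzymes, 1 was higher and 5 lower. Of 16 other chromatin replication factors, 2 were higher and 2 lower, and of 21 genes of E2F and RB control, 7 were higher and 3 lower. Over all tested genes 15.1% were called higher and 18.7% lower. Medians of these 4 lists were 0.03, 0.01, 0.01 and 0.02, against 0.01 for all tested genes.

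Among the fork factors, Rnaseh2b, a subunit of the nuclease that removes ribonucleotides from DNA, was at 36.3 and 39.7 scaled TPM with oligo #1, 28.1 and 30.4 with oligo #2, and 20.3 and 23.7 in shNT (0.58 ± 0.08, limma adjusted p = 0.00497), and with oligo #2 alone it was at 0.40 (limma adjusted p = 0.0609). Dscc1, a subunit of an alternative clamp loader, was higher by 0.51 ± 0.05 (limma adjusted p = 0.00249). Its difference was 0.85 with oligo #1 and 0.17 with oligo #2 (limma adjusted p = 0.000409 and 0.154), and oligo #2 minus oligo #1 was -0.68 (limma adjusted p = 0.00111). Top1, the topoisomerase that relaxes DNA ahead of forks, was lower by a difference of -0.38 ± 0.03 (limma adjusted p = 0.00174), with -0.59 for oligo #1 and -0.17 for oligo #2 (limma adjusted p = 0.000345 and 0.0647). Top1 lies on chromosome 2 and remained lower with chromosome medians removed (-0.15, limma adjusted p = 0.0288). Among the origin factors, Topbp1 differed by -0.34 and Orc4 by -0.32 (limma adjusted p = 0.00581 and 0.0168), and Ticrr by 0.26 (limma adjusted p = 0.0161). With oligo #2 alone Topbp1 was called at -0.32 (limma adjusted p = 0.036), while Orc4 at -0.12 and Ticrr at 0.22 were not (0.379 and 0.0868). All 3 lost their calls with chromosome medians removed (limma adjusted p = 0.0856, 0.333 and 0.0642). Orc4 also lost it without oligo #2 replicate 2 (limma adjusted p = 0.0598) or shNT replicate 2 (0.0522), and Ticrr without oligo #1 replicate 1 or 2 (0.059 and 0.052), oligo #2 replicate 1 or 2 (0.0583 and 0.0567) or shNT replicate 1 (0.0548).

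Among nucleotide enzymes, the IMP dehydrogenase Impdh2 differed by -0.30 and the CTP synthase Ctps by -0.27 (limma adjusted p = 0.00382 and 0.00454), while the UMP and CMP kinase Cmpk1 differed by 0.39 (limma adjusted p = 0.00558). Impdh2 was at -0.34 with oligo #1 and -0.27 with oligo #2, both called (limma adjusted p = 0.00211 and 0.029). Ctps was at -0.51 with oligo #1 and -0.02 with oligo #2, and Cmpk1 at 0.80 and -0.02, with no call for oligo #2 in either (limma adjusted p = 0.757 and 0.9). Oligo #2 minus oligo #1 was called for both, at 0.49 and -0.81 (limma adjusted p = 0.000856 and 0.000714). Impdh2 lost its call with chromosome medians removed (limma adjusted p = 0.138). Of the chromatin factors, the remodeller Hells differed by -0.21 (limma adjusted p = 0.00833), Hmgb1 by 0.23 (0.0118) and the FACT subunit Ssrp1 by -0.20 (limma adjusted p = 0.0176), which turned to 0.03 with chromosome medians removed (limma adjusted p = 0.661). With oligo #2 alone none of the 3 was called, at -0.12, 0.23 and -0.05 (limma adjusted p = 0.125, 0.0502 and 0.584). Hells missed the threshold in deposited TPM (limma adjusted p = 0.0585) and Hmgb1 without small-RNA entries (limma adjusted p = 0.0833). Hmgb1 also lost its call without oligo #1 replicate 2 (limma adjusted p = 0.0562) or oligo #2 replicate 1 or 2 (0.0538 and 0.0638), and Ssrp1 without oligo #1 replicate 1 or 2 (0.0659 and 0.0672) or oligo #2 replicate 1 or 2 (0.0763 and 0.0649).

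Rb1, the retinoblastoma protein that holds back E2F factors, had the smallest adjusted p of the E2F and RB list. It was at 14.6 and 14.1 scaled TPM with oligo #1, 7.01 and 7.29 with oligo #2, and 5.81 and 5.65 in shNT. The 3 groups were separate, with oligo #1 far above the others. Rb1 rose by 0.73 ± 0.05 in the mean of both hairpins (limma adjusted p = 0.000798), by 1.19 with oligo #1 (0.00013) and by 0.28 with oligo #2 (0.0474), and oligo #2 minus oligo #1 was -0.91 (limma adjusted p = 0.000361). The oligo #2 call was lost without any 1 library, at limma adjusted p = 0.119 for either oligo #1 library, 0.21 and 0.239 for oligo #2 replicates 1 and 2, and 0.0715 and 0.0547 for shNT replicates 1 and 2. E2f2, an activating E2F factor, was at 11.8 and 12.2 with oligo #1, 7.78 and 8.46 with oligo #2, and 6.16 and 7 in shNT, a difference of 0.52 ± 0.07 (limma adjusted p = 0.00445), with 0.27 for oligo #2 alone (limma adjusted p = 0.101). Tfdp2, a dimer partner of E2F factors, was at 11.4 and 11.1 with oligo #1, 11 and 11.5 with oligo #2, and 16.1 and 15.2 in shNT, a difference of -0.44 ± 0.05 (limma adjusted p = 0.00286). The hairpins overlapped in Tfdp2 and both lay below shNT. Tfdp2 lies on chromosome 9, and with chromosome medians removed its difference was -0.23 (limma adjusted p = 0.0202).

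On the median-ratio scale, 34 of the 45 members had a call in at least 1 of the 4 comparisons, as had 55.3% of all tested genes. The 11 with none were Orc6, Mcm3, Mcm6, Pola2, Pole, Pcna, Rfc1, Rfc4, Rrm1, Ung and Uhrf1. In deposited TPM, Mcm3, Pola2, Rrm1 and Uhrf1 were called higher in the mean of both hairpins (limma adjusted p = 0.0179, 0.021, 0.0468 and 0.0218). With chromosome medians removed, Mcm3, Pola2 and Pcna were called higher with oligo #1 (limma adjusted p = 0.0197, 0.0137 and 0.0279). Exons of 11 members overlap another coding gene on the opposite strand, among them Mcm7, Gins2, Rfc2, Rfc5, Fen1, Lig1 and Chaf1a, and whether counting used strand is not given in the sources used here. For these genes reads of the partner cannot be told apart. Tyms has a pseudogene entry of the same name, so its value is uncertain.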

How the data were processed

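RNA sequencing libraries of 6 samples were used, 2 for each of shPthlh oligo #1, shPthlh oligo #2 and shNT, grouped and numbered from the sample titles. The authors deposited a gene table in TPM (transcript abundance scaled to a total of 1000000 per library), and per the submitters' processing notes Salmon, R 3.5, DESeq2 and the mm10 build were used; the role of each tool is not stated there. Without read numbers, no counting interval is given, and the number of libraries limits the precision.

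Each library was divided by a median-ratio size factor (0.951 to 1.04), since short RNA entries held 20.2% to 34.5% of TPM. The 11549 of 24493 genes that reached a TPM of 1 in 2 or more libraries were tested as log2(scaled TPM + 1), which understates changes of low genes, using limma 3.58.1 (R 4.3.3). A fit of 3 group means with a variance trend gave p-values, adjusted after Benjamini and Hochberg with a threshold of 0.05. The code was tested on simulated data. Comparisons were the mean of both oligos minus shNT, each oligo minus shNT, and oligo #2 minus oligo #1. Gene positions came from GENCODE M21, which placed 98.8% of tested genes, and promoter windows from RefSeq.

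Members, roles, the 5 other lists (92 genes, all tested) and the alternatives were chosen with earlier results of these data known. Members called in the mean of both oligos were named with values, as were the 6 with the smallest adjusted p per direction in the other comparisons, the highest and lowest expressed of each role, and up to 3 called genes of each other list. Subunit ratios, and values of other members, were picked after values were seen. Alternatives covered scaling, pseudocount, filter, replicate block, fits of the compared groups only, pooling of the hairpins, chromosome medians and omission of each library.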

Additional observations from a re-analysis of the deposited data

Results flagged for a closer look

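In 25 members the shPthlh oligo #2 and shPthlh oligo #1 libraries differed, as tested by the difference between them in limma. In the same comparison 20.3% of all tested genes were called higher and 19.5% lower. Hairpin and clone cannot be told apart here. On the log2 scale, oligo #2 minus oligo #1 was -0.63 for Pole2, -0.42 for Lig1, -0.40 for Gins2, -0.32 for Rfc5, -0.30 for Rpa2 and Gins3, -0.29 for Mcm5, -0.28 for Pold3 and -0.27 for Cdt1. It was -0.25 for Prim2, Slbp and Rfc2, -0.24 for Prim1, -0.21 for Tyms and Mcm7, -0.19 for Rfc3, -0.16 for Chaf1a and -0.15 for Mcm2. It was above 0 for Mcm10 (0.18), Dut (0.19), Cdc45 (0.23), Gins1 (0.24), Fen1 (0.28), Mcm4 (0.28) and Chaf1b (0.32). The 7 members above 0 lie on chromosomes 2, 16 and 19, where the medians of all tested genes for oligo #2 minus oligo #1 were 0.29, 0.28 and 0.17. The part of those medians in the 7 differences was not tested, and all 7 lost their call or turned direction with chromosome medians removed. With 2 libraries per group no sample could be tested as standing apart.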

How the results depend on the processing

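In the mean of both oligos, 20 members higher became 9 without small-RNA entries and 0 with the hairpins pooled, and the 1 lower became 0 in deposited TPM, with hairpins pooled or with chromosome medians removed; limma called 4 of 11549 genes when pooled, in place of 3897. With oligo #1, 25 higher became 11 without small-RNA entries, and 5 lower became 1 in deposited TPM, 2 with no filter, 3 with only the groups compared and 0 with chromosome medians removed. With oligo #2, 4 higher became 11 in deposited TPM, 0 without small-RNA entries and 0 with only the groups compared. Its 798 called genes became 522 without small-RNA entries, 423 with no filter, 160 with only the groups compared and 528 with chromosome medians removed. Between oligo #2 and oligo #1, 7 higher and 18 lower became 3 and 6 without small-RNA entries and 0 and 9 with chromosome medians removed. The cause was not tested beyond what each alternative changes. With chromosome medians removed, directions turned for Gins1 (0.16), Chaf1b (0.11) and Dut (0.19) with oligo #1. Between oligos they turned for Cdc45 (-0.06), Mcm10 (-0.12), Gins1 (-0.05) and Dut (-0.10). Ssrp1, of the other lists, turned to 0.03 in the mean of both oligos. Alternatives for genes of the other lists were added after seeing the data.

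Leaving out 1 library gave 12 to 20 members higher, 0 to 1 lower and 2269 to 4574 genes called in the mean of both oligos. It gave 18 to 27, 1 to 6 and 3369 to 5996 with oligo #1, 0 to 10, 0 and 6 to 2230 with oligo #2, and 2 to 8, 4 to 21 and 2337 to 5718 between oligos. Where this leaves 1 library in a group, that library is assumed to vary like the others.

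Samples with the same replicate number did not deviate together across genes (r = -0.04, 0.02 and 0.01). Each group gives a single difference between replicates, so this cannot show whether the numbers mark a shared culture or batch. With a replicate block, 4 members higher with oligo #2 became 1, and 334 genes were called in place of 798.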
